A study of Mus musculus with 2 samples.

Results

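Late neutrophil maturation genes were taken as 6 named genes: Mmp8, Mmp9, Retnlg, Csf3r, Ly6g and Olfm4. They were found by symbol among the 31053 genes of a single-cell RNA library of CD45+ leukocytes sorted alive from mouse cochleae, and all 6 were detected. Sequencing covered 4 pools of cochleae, each from 6 mice: a sham pool and pools collected 3, 7 and 14 days after noise exposure. The sources call the control pool sham treated in one place and untreated in another, and strain, sex, age and noise level are not given in the sources used here. Cells of each pool carried their own hashtag antibody and were captured together. A barcode was assigned to a pool when its top hashtag had at least 10 UMIs and at least 80% of the barcode's hashtag UMIs. UMIs are counts of tagged RNA molecules, and CPM here means UMIs of a gene per 1000000 gene UMIs summed over the barcodes of a group.

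In bone marrow, neutrophils mature through an ordered programme. They first make the contents of primary granules, then those of secondary and tertiary granules, and then stop making granule proteins while surface receptors for release and chemotaxis come up. Mmp8 encodes the neutrophil collagenase and Mmp9 a gelatinase, both metalloproteinases stored in granules. Retnlg encodes resistin-like gamma, a secreted protein of mouse granulocytes, and Olfm4 encodes olfactomedin 4, a granule glycoprotein known from a subset of neutrophils. Csf3r encodes the receptor for G-CSF, the cytokine that drives granulopoiesis, and Ly6g encodes the GPI-anchored surface protein used to sort mouse neutrophils.

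In GRCm38 with GENCODE vM21, all 6 are protein-coding genes on the plus strand. Mmp8 (ENSMUSG00000005800) lies at chr9:7558456-7568485 with 10 exons, Mmp9 (ENSMUSG00000017737) at chr2:164940780-164955850 with 13, and Retnlg (ENSMUSG00000022651) at chr16:48872621-48874496 with 4. Csf3r (ENSMUSG00000028859) lies at chr4:126024550-126044440 with 17 exons, Ly6g (ENSMUSG00000022582) at chr15:75155240-75159126 with 4, and Olfm4 (ENSMUSG00000022026) at chr14:79984081-80023139 with 7. Olfm4 overlaps Gm6999 on the same strand and shares 105 of its 2955 50-base words with it, so reads there are uncertain. Ly6g shares 4 of 892 such words with Ly6i and Gm28116, and Csf3r shares 385 of 3676 with 190 other genes, while Mmp8, Mmp9 and Retnlg share none. RefSeq promoter windows of GRCm38.p6, from 250 bases before to 50 after the annotated start, were matched for 5 of the 6 genes. The windows below belong to 2 genes that peaked at the intermediate stage, the 1 gene that peaked in Il1b-high mature barcodes and the 1 gene that only some barcodes carried. Capitals mark GAGGAA, the core letters of the PU.1 motif, or TTGCNNAA, the letters of a C/EBP-like motif, on either strand.
Mmp8, chr9:7558179-7558478, plus strand: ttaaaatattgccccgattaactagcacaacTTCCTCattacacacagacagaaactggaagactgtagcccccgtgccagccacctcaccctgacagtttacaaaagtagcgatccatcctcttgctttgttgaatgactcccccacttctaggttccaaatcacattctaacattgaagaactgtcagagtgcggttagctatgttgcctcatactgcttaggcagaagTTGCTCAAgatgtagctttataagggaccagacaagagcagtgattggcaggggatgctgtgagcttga
Retnlg, chr16:48872358-48872657, plus strand: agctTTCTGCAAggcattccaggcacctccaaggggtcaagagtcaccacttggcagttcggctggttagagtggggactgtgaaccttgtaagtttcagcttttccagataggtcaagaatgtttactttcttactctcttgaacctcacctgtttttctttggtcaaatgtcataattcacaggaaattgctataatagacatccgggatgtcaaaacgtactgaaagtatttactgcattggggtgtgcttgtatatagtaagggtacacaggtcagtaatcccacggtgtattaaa
Csf3r, chr4:126024409-126024708, plus strand: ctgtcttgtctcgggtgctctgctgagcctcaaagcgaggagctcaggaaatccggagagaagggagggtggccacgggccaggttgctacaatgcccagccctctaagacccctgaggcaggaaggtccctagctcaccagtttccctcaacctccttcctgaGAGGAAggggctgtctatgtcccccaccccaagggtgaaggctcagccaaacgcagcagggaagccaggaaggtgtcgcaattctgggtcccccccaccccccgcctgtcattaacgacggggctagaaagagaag
Olfm4, chr14:80000052-80000351, plus strand: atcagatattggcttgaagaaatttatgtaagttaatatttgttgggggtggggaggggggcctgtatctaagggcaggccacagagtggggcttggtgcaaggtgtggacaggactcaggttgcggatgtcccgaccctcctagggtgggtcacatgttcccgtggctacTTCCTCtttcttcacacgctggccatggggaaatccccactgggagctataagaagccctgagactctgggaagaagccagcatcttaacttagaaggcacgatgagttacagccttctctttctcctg
GAGGAA was present in the windows of Mmp8, Csf3r and Olfm4 at 219, 86 and 79 bases before the start, and TTGCNNAA in those of Mmp8 and Retnlg at 19 and 246 bases before it. Over 32544 RefSeq windows of the same length, 28.1% held GAGGAA and 10.8% held TTGCNNAA on either strand; the motifs do not overlap in the windows shown. The Olfm4 window lies inside the GENCODE gene span given above, so its RefSeq start is not the start of that span. These matches describe the letters only.

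After filters on mitochondrial UMIs and genes per barcode, 1285 barcodes were used: 341 from sham, 551 from day 3, 216 from day 7 and 177 from day 14, with median UMIs per barcode between 6528 and 8378. Stages were cut by marker sums that did not include the 6 genes. The primary granule stage (33 barcodes) was gated on Elane, Mpo, Prtn3, Ctsg and Ms4a3. These are markers of early neutrophils and of myeloid progenitors, and no neutrophil marker sum was required. The 33 barcodes are counted with the neutrophils below, but some may be other myeloid progenitors. Immature barcodes were high for secondary granule genes such as Camp, Ngp and Ltf, and were split into cycling (30) and non-cycling (155). Intermediate barcodes (98) kept a lower sum, and mature barcodes had nearly lost it and were split into Il1b-low (141) and Il1b-high (87). The 12 mature neutrophil markers, among them Cxcr2, Il1r2 and Clec4d, summed to 15315 to 18952 CPM over the pools in mature and 895 to 1671 CPM in immature barcodes. All 12 are part of the neutrophil gate, and Il1b and Ccrl2 also of the Il1b split, so these sums are no independent check of the stages. However, 56 of the 544 neutrophil barcodes lay within 1.5-fold of the upper granule cut, and 60 of 228 mature barcodes within 1.5-fold of the Il1b cut, so stages are ranges of a continuum. Each condition is 1 pool, so no test between conditions was possible: intervals are exact 95% intervals for counting error only, and mice within a pool cannot be separated.

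Neutrophil stages held 96.8% of the used UMIs of Mmp8, 96.8% of Mmp9, 97.6% of Retnlg, 93.0% of Csf3r, 97.5% of Ly6g and 98.8% of Olfm4. The 6 genes did not share a stage profile. Mmp8, Mmp9 and Retnlg were highest in intermediate barcodes, and Ly6g was highest earlier. Csf3r was highest in Il1b-high mature barcodes, and Olfm4 was carried by a minority of barcodes in every stage. Whether Il1b-high barcodes follow Il1b-low ones in time was not tested.

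Mmp8 had 3.33 CPM at the primary granule stage, 71.3 in cycling immature, 1984 in non-cycling immature, 3591 in intermediate, 1983 in Il1b-low mature and 683 in Il1b-high mature barcodes. The collagenase transcript was thus highest at the intermediate stage, and its non-cycling immature and Il1b-low mature levels did not differ beyond counting error. In intermediate barcodes the pools lay close together, at 3705 CPM in sham, 3428 at day 3, 3649 at day 7 and 3759 at day 14. Of the 67 UMIs in cycling barcodes, 97.0% came from 1 barcode, and without it the level was 2.23 CPM.

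Mmp9 had 2.50, 117, 1165, 1884, 1734 and 1180 CPM over the same stage order. The gelatinase transcript came up with Mmp8 but was kept better in mature barcodes. Its intermediate levels were 1879 CPM in sham, 1625 at day 3, 2278 at day 7 and 2082 at day 14, and in every pool the interval overlapped that of Il1b-low mature barcodes.

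Retnlg had 22.5, 701, 8385, 47347, 37509 and 9695 CPM over the stage order. The first value was below the 54.4 CPM of B cell precursors, which serve as background. In cycling barcodes 88.8% of Retnlg UMIs came from the barcode that also carried nearly all Mmp8, and the level without it was 82.5 CPM. At the intermediate stage the pools had 45121 CPM in sham, 45367 at day 3, 48097 at day 7 and 55067 at day 14, and every intermediate barcode had Retnlg UMIs, from 1525 to 85581 CPM.

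Ly6g had 3.33 CPM at the primary granule stage, 934 in cycling immature, 3140 in non-cycling immature, 2687 in intermediate, 809 in Il1b-low mature and 172 in Il1b-high mature barcodes. All 30 cycling barcodes had Ly6g UMIs, and the top barcode held 8.31% of them. Their level was 29.7% of the highest stage, against 6.21% for Mmp9 and 49.9% for Olfm4, whose UMIs came from 7 of the 30. Non-cycling immature barcodes were highest at day 3, with 3331 CPM, and at day 7, with 3458 CPM; in sham and at day 14 the intermediate stage was higher, with 2549 and 2813 CPM.

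Csf3r had 58.3, 59.6, 117, 311, 1158 and 2303 CPM over the stage order, and the first 2 did not differ beyond counting error. It was the only one of the 6 genes with its highest level in Il1b-high mature barcodes, and this held in each pool: 2827 CPM in sham, 2158 at day 3, 2646 at day 7 and 2046 at day 14, although day 7 and day 14 rest on 11 and 9 barcodes. All 87 Il1b-high barcodes had Csf3r UMIs, from 130 to 7081 CPM.

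Olfm4 had 125, 613, 782, 1228, 372 and 59.3 CPM over the stage order. These sums hide a split between barcodes that is described further on. The intermediate stage was highest over all pools together and in sham, day 3 and day 7, but at day 14 non-cycling immature barcodes had 2376 CPM from 14 barcodes, above 646 CPM in 15 intermediate barcodes.

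**Figure D1:**
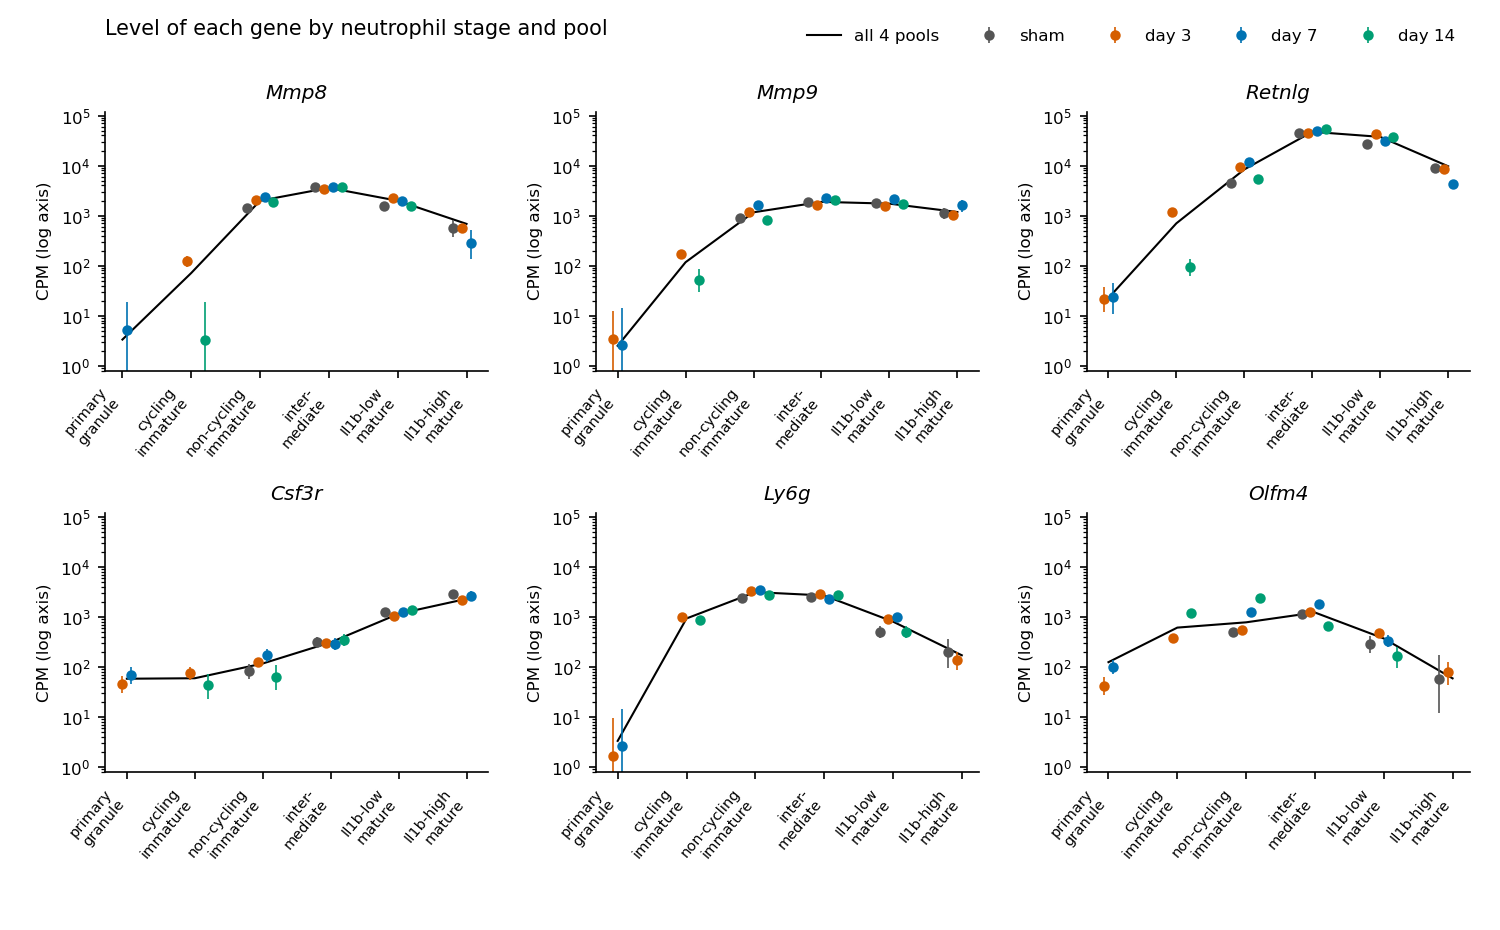
CPM of each gene (log axis) by neutrophil stage, in the order of the gates. The black line joins the values over all 4 pools; points are pools with at least 10 barcodes and a count above 0, with exact 95% Poisson intervals. Retnlg reaches 47347 CPM at the intermediate stage, and Csf3r reaches 2303 CPM in Il1b-high mature barcodes.

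Mature barcodes (228) were set against immature barcodes (185) to ask how the genes differ between the ends of granule gene loss. Relative to all UMIs, Csf3r, Retnlg and Mmp9 were higher in mature barcodes, Ly6g and Olfm4 were lower, and Mmp8 was within 1.5-fold. Of 6974 genes with at least 20 UMIs, 34.2% were at least 1.5-fold higher and 31.9% at least 1.5-fold lower, so 3 higher and 2 lower of 6 is near the background. The genes were named for this stage, and the difference is a description.

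Csf3r had 1505 CPM in mature and 101 CPM in immature barcodes, a ratio of 14.9 (95% interval 13.3 to 16.9). Retnlg had 29071 CPM in mature and 6161 CPM in immature barcodes, a ratio of 4.72 (4.64 to 4.80). Mmp9 had 1566 CPM in mature and 862 CPM in immature barcodes, a ratio of 1.82 (1.71 to 1.93). In each of the 4 pools these 3 genes were higher in mature barcodes, but the pools spread far beyond the counting intervals. The lowest and highest ratios, at day 7 and day 14, were 8.79 and 30.4 for Csf3r, 2.23 and 14.9 for Retnlg, and 1.23 and 4.63 for Mmp9. Ly6g had 615 CPM in mature and 2502 CPM in immature barcodes, a ratio of 0.246 (0.227 to 0.266), and lay between 0.188 and 0.298 in the pools. Olfm4 had 277 CPM in mature and 733 CPM in immature barcodes, a ratio of 0.378 (0.334 to 0.427), and lay between 0.0751 at day 14 and 0.672 at day 3. Mmp8 had 1588 CPM in mature and 1430 CPM in immature barcodes, a ratio of 1.11 (1.05 to 1.17), and its direction turned under other scalings: the log2 ratio was -0.08 without the 6 genes, S100a8 and S100a9 in the total, and -0.29 with median-ratio size factors.

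The scale matters here because mature barcodes had a mean of 4633 UMIs and immature barcodes 17554. Counted per barcode, Csf3r was still higher in mature barcodes, with 6.97 UMIs against 1.77 in immature barcodes. Retnlg had 135 UMIs per mature and 108 UMIs per immature barcode. Mmp9 turned, with 7.25 UMIs per mature and 15.1 UMIs per immature barcode, and Mmp8 had 7.36 UMIs per mature and 25.1 UMIs per immature barcode. Ly6g had 2.85 UMIs per mature and 43.9 per immature barcode, and Olfm4 had 1.29 per mature and 12.9 per immature barcode. Fewer transcripts per cell and a smaller share of a changing total cannot be told apart from CPM alone.

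**Figure D2:**
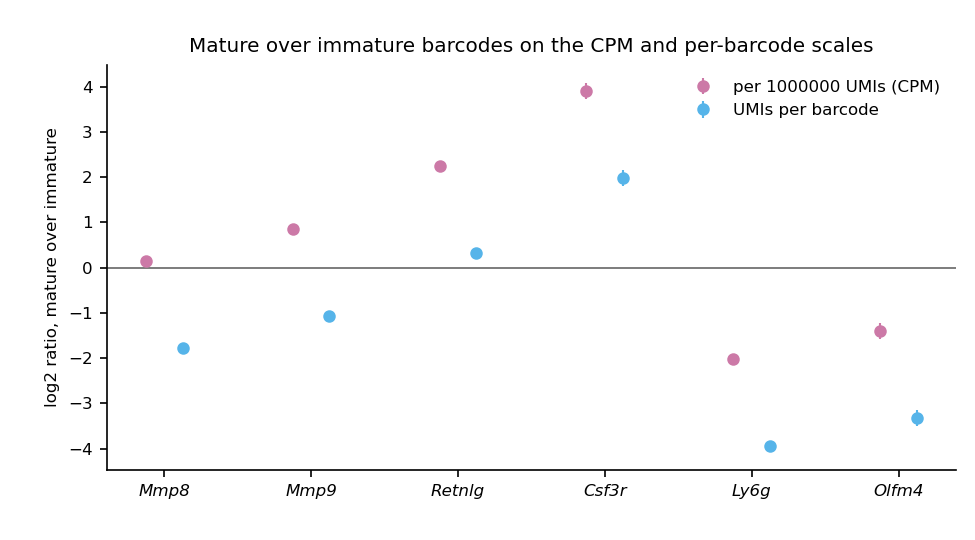
Log2 ratio of mature over immature barcodes for each gene, from CPM (left point of each pair) and from mean UMIs per barcode (right point), with exact 95% intervals. Csf3r and Retnlg lie above 0 on both scales; Mmp8 and Mmp9 lie above 0 only for CPM.

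Among mature barcodes, the Il1b-high ones (87) were set against the Il1b-low ones (141). Csf3r was 1.99-fold higher (1.80 to 2.20), with 2303 CPM in Il1b-high and 1158 CPM in Il1b-low barcodes. The other 5 genes were lower, 4 of them by more than 1.5-fold. Of 3861 genes, 36.7% were at least 1.5-fold higher and 9.22% at least 1.5-fold lower. Retnlg had 9695 CPM in Il1b-high and 37509 CPM in Il1b-low barcodes, a ratio of 0.258. Mmp8 had 683 CPM in Il1b-high and 1983 CPM in Il1b-low barcodes, a ratio of 0.345. Mmp9 had 1180 CPM in Il1b-high and 1734 CPM in Il1b-low barcodes, a ratio of 0.680. For Ly6g the ratio was 0.212 and for Olfm4 0.159. The direction of all 6 was the same in the day 3 and in the sham pool, the pools with at least 15 barcodes on each side. For Olfm4 in sham this rested on 1 Il1b-low barcode, which held 96.4% of the Olfm4 UMIs there. Without that barcode 1 UMI was left among the Il1b-low ones, or 11.1 CPM, and 3 of 15 Il1b-high sham barcodes held 1 UMI each. Per barcode, Csf3r had a mean of 8.48 UMIs in Il1b-high and 6.04 in Il1b-low barcodes. Mmp9 had 378 UMIs in the 87 Il1b-high and 1276 in the 141 Il1b-low barcodes, so per barcode it was lower by more than in CPM. Il1b-high barcodes held fewer UMIs, with a median of 3572 against 5371 in Il1b-low barcodes, and the part of depth in these ratios was not tested.

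Differences between the other stages were of other sizes. In intermediate against non-cycling immature barcodes, 5 of 6 genes were at least 1.5-fold higher in CPM, where 18.7% of 5757 genes were: Retnlg 5.65-fold, Csf3r 2.65-fold, Mmp8 1.81-fold, Mmp9 1.62-fold and Olfm4 1.57-fold, with Ly6g at 0.855. Intermediate barcodes had a mean of 9940 UMIs and non-cycling immature ones 14888. Per barcode, Retnlg had 471 UMIs in intermediate against 125 in non-cycling immature barcodes, and Csf3r 3.09 against 1.75. Mmp8 had 35.7 against 29.5, Mmp9 18.7 against 17.3, Olfm4 12.2 against 11.6 and Ly6g 26.7 against 46.8. The steps that follow are given in CPM first and then per barcode. In Il1b-low mature against intermediate barcodes Csf3r was 3.72-fold higher, where 33.4% of 4322 genes were past 1.5-fold, while Retnlg was at 0.792 and Mmp9 at 0.920. Mmp8, Ly6g and Olfm4 were at 0.552, 0.301 and 0.303, where 10.2% were lower past 1.5-fold. Per barcode, Csf3r had 6.04 UMIs in Il1b-low mature against 3.09 in intermediate barcodes. Retnlg had 196 against 471, Mmp9 9.05 against 18.7, Mmp8 10.3 against 35.7, Ly6g 4.22 against 26.7 and Olfm4 1.94 against 12.2. In cycling against non-cycling immature barcodes 5 genes were lower past 1.5-fold in CPM, where 20.7% of 6298 genes were. Mmp8 was at 0.0359, and Olfm4, at 0.784, was the exception. Cycling barcodes had a mean of 31328 UMIs. Per barcode, Csf3r and Olfm4 were higher in cycling barcodes, with 1.87 UMIs against 1.75 and 19.2 against 11.6. Ly6g had 29.3 against 46.8, Retnlg 22.0 against 125, Mmp9 3.67 against 17.3 and Mmp8 2.23 against 29.5.

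Within stages, barcodes ranked alike for some genes and in opposite order for others; these Spearman correlations of CPM are descriptions over barcodes of 1 library that differ in depth. Among 155 non-cycling immature barcodes, rho was 0.69 for Mmp8 and Retnlg and 0.62 for Mmp8 and Mmp9. Among 141 Il1b-low mature barcodes, rho was 0.63 for Retnlg and Ly6g, but -0.55 for Retnlg and Csf3r and -0.53 for Csf3r and Ly6g. Mmp9 showed no such order there, with rho of 0.01 with Retnlg and 0.12 with Csf3r.

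Outside neutrophils, 2 of the genes were found above background. Retnlg had 54.4 CPM in B cell precursors, 51.5 in 68 B cells, 43.8 in 74 T cells, 39.2 in 88 NK cells, 38.2 in 27 macrophages and 25.8 in 40 monocytes, and at least 1 UMI in 36.3% of B cell precursors. The intervals of monocytes (15.8 to 39.9) and B cell precursors (46.0 to 63.8) did not overlap. By pool, B cell precursors had 80.7 CPM in sham (62.9 to 102) and 31.8 CPM at day 7 (19.7 to 48.5). Whether these UMIs are free RNA was not tested. B cell precursors serve as the background for the other genes. In them Mmp8 had a UMI in 3.63% of barcodes, Mmp9 in 2.31%, Csf3r in 1.65%, Ly6g in 5.61% and Olfm4 in 1.98%. In the 511 neutrophil barcodes after the primary granule stage the shares were 76.9% for Mmp8, 93.5% for Mmp9, 92.6% for Retnlg, 88.5% for Csf3r, 75.1% for Ly6g and 20.7% for Olfm4. Thinned to 2000 UMIs per barcode, which left out 29 neutrophil and 11 B cell precursor barcodes, Csf3r was at 53.1% of neutrophils and at 0 of 292 precursors, and Olfm4 at 17.6% and at 0 of 292, which allows up to 1.26%.

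Csf3r stood above that background in myeloid and progenitor gates. It had 72.3 CPM in monocyte-like barcodes (54.6 to 93.9; 29 of 40 barcodes), 50.9 CPM in macrophage-like barcodes (12 of 27) and 45.7 CPM in stem or progenitor-like barcodes (14 of 25), against 1.82 CPM in B cell precursors. These levels lie close to the 58.3 CPM of the primary granule stage. Mmp8 had 53.0 CPM in the monocyte gate (38.0 to 71.8), from 41 UMIs in 13 of 40 barcodes with at most 8 in any, against 4.01 CPM in B cell precursors. By pool its monocyte level was 41.0 CPM in sham and 48.2 CPM at day 3, with 168 and 65.2 CPM in the 2 barcodes of day 7 and the 4 of day 14. Mmp9 had 0 UMIs in the same 40 barcodes, which allows up to 4.76 CPM, and Retnlg there was below its CPM in B cell precursors. For each Retnlg UMI there were 2.05 Mmp8 UMIs in monocyte-like barcodes and 0.0738 in B cell precursors. Monocyte-like barcodes were deeper, with a median of 17057 UMIs against 6025 in B cell precursors.

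**Figure D3:**
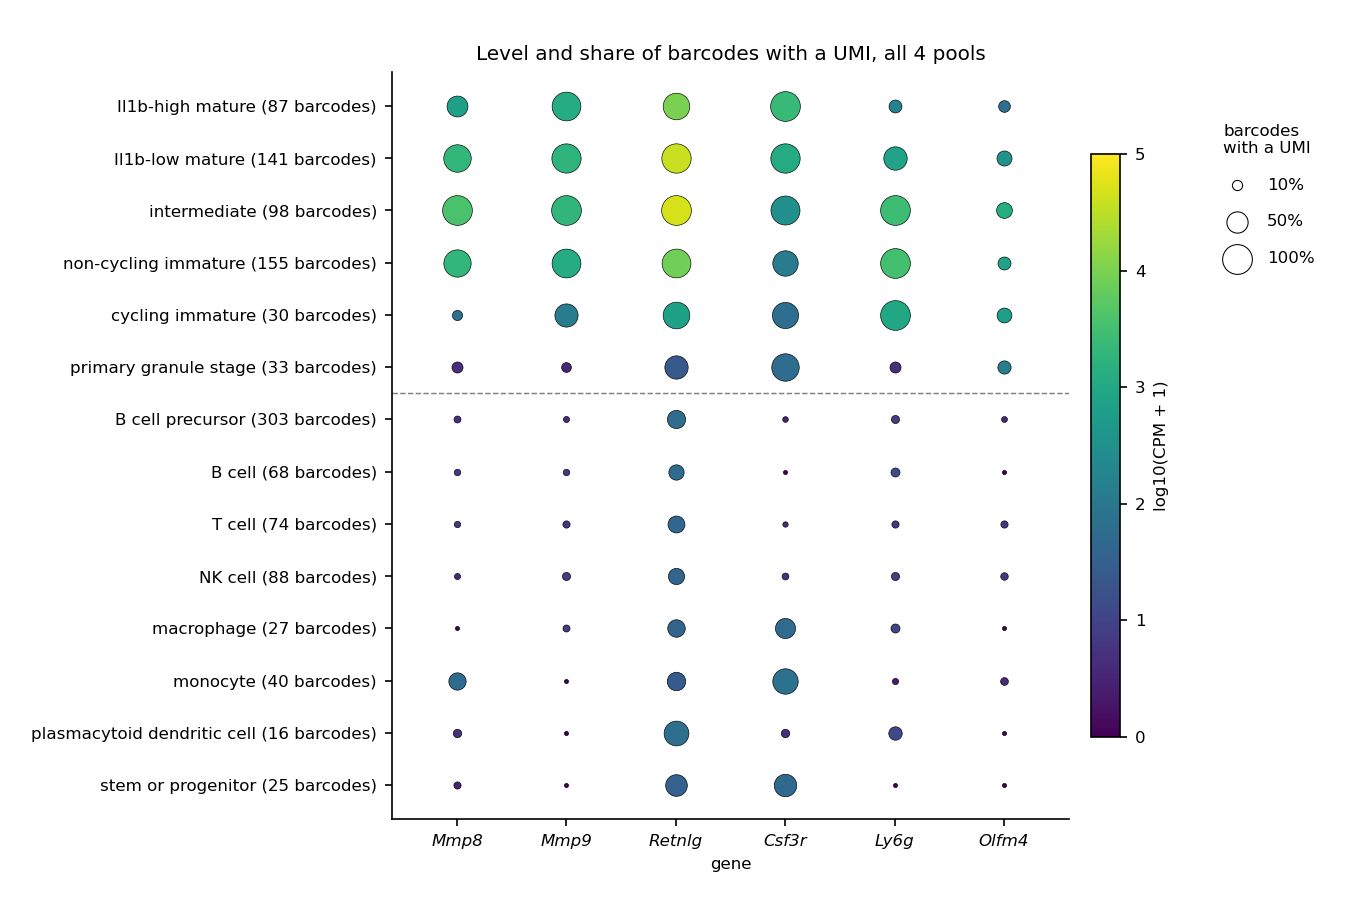
Dots give each gene in each gate over all 4 pools; colour is log10(CPM + 1) and area grows with the percent of barcodes with a UMI. Neutrophil stages stand above the dashed line. Below it Retnlg is at a low level in every gate, and Csf3r and Mmp8 stand out in monocyte-like barcodes at 72.3 and 53.0 CPM.

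Olfm4 was found in few barcodes at high counts. At least 20 Olfm4 UMIs were present in 30 of 185 immature, 23 of 98 intermediate and 5 of 228 mature barcodes, a threshold set from the gap in the counts. In immature barcodes the 30 held 41 to 146 UMIs each and 99.0% of all Olfm4 UMIs there, and no other had more than 12. The threshold is not equal across stages, since median depth was 16316 UMIs in immature and 4412.5 in mature barcodes, of which 41 held 1 to 19 Olfm4 UMIs. Thinned to 2000 UMIs, Olfm4 had a UMI in 16.3% of immature, 27.4% of intermediate and 14.4% of mature barcodes, and the intervals of mature (9.90 to 19.9) and immature barcodes (11.2 to 22.6) overlapped. The mean of thinned barcodes was 1.52 Olfm4 UMIs in immature, 2.40 in intermediate and 0.402 in mature barcodes. By pool, 3 of 28 sham, 13 of 116 day 3, 4 of 17 day 7 and 10 of 24 day 14 immature barcodes were Olfm4-high, or 10.7% (exact binomial 2.27 to 28.2), 11.2% (6.10 to 18.4), 23.5% (6.81 to 49.9) and 41.7% (22.1 to 63.4). The day 14 interval overlapped that of every other pool except day 3. Among intermediate barcodes the order differed, with 7 of 25 in sham, 7 of 38 at day 3, 6 of 20 at day 7 and 3 of 15 at day 14. Since each pool mixed 6 mice, shares that differ between mice cannot be told apart from a change with time.

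The other 5 genes hardly followed the Olfm4 split. In 23 Olfm4-high against 128 Olfm4-zero non-cycling immature barcodes, Mmp8 had 2525 CPM in Olfm4-high and 1901 CPM in Olfm4-zero barcodes, a ratio of 1.33 (1.23 to 1.43). Mmp9 was at 1.06, Ly6g at 1.05, Retnlg at 0.986 and Csf3r at 0.705 (0.472 to 1.02). None was past 1.5-fold higher, where 9.01% of 5070 genes were. In intermediate barcodes all 5 ratios lay between 0.973 and 1.07, and the median depth was alike, with 9916 UMIs in Olfm4-high and 10133 in Olfm4-zero barcodes.

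**Figure D4:**
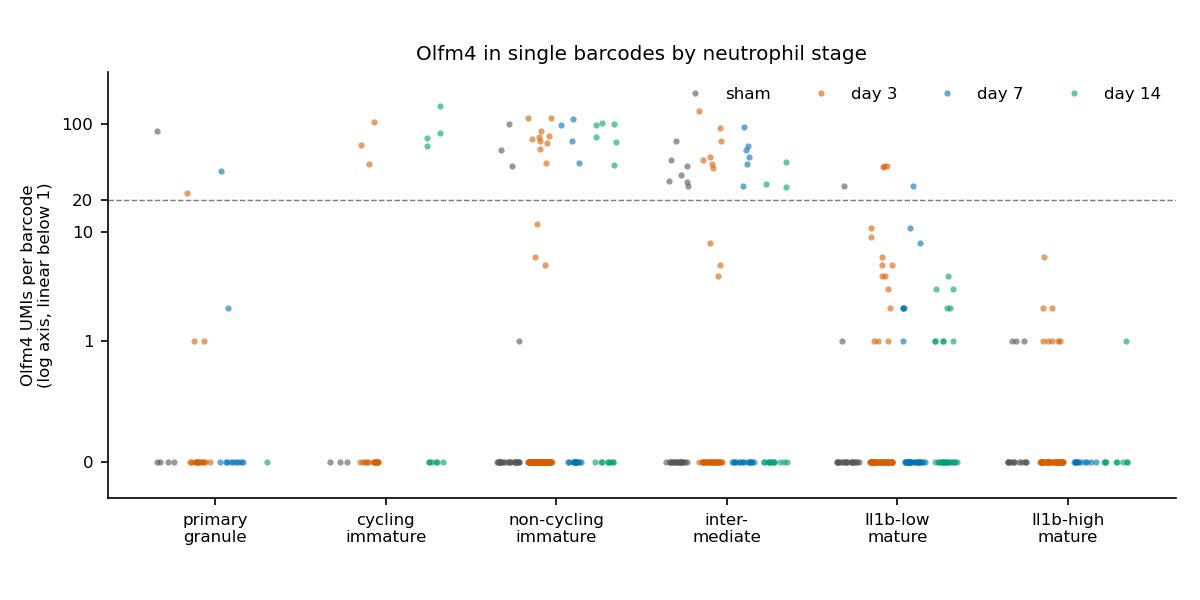
Olfm4 UMIs in every neutrophil barcode (log axis, linear below 1) by stage, coloured by pool; the dashed line is at 20 UMIs. Immature and intermediate barcodes fall into a group at 0 and a group above 20, with few between.

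The days after noise were compared with sham within stages, to separate level within a stage from the mix of stages. All 3 ratios of a gene share the same sham pool, so they are not independent. In mature barcodes, ratios to sham lay above 1 for Mmp8, Retnlg and Ly6g and below 1 for Csf3r at each day. However, for Ly6g and Csf3r the day 14 intervals included 1, no Mmp8 or Csf3r ratio passed 1.5-fold, and the highest ratio was 2.09. The mix also differed: 52 of 113 mature barcodes were Il1b-high at day 3, 11 of 42 at day 7, 9 of 37 at day 14 and 15 of 36 in sham, and Il1b-low barcodes are therefore also given alone.

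Retnlg in mature barcodes was 20752 CPM in sham, 31095 at day 3, 26710 at day 7 and 32669 at day 14, so each noise pool was above sham. The ratio was just under 1.5 at day 3 (1.44 to 1.56), 1.29 at day 7 and 1.57 (1.51 to 1.65) at day 14; with granule cuts of 1000 and 100 the day 7 log2 ratio was -0.03, against 0.36. Ly6g had 398 CPM in sham, 633 at day 3, 832 at day 7 and 490 at day 14, with ratios of 1.59 (1.21 to 2.14), 2.09 (1.54 to 2.87) and 1.23 (0.868 to 1.76). Day 7 was the highest pool for this surface marker. Its day 7 log2 ratio stayed between 0.54 and 1.54 over 16 alternative settings. Csf3r had 1786 CPM in sham, 1418 at day 3, 1495 at day 7 and 1559 at day 14, with ratios of 0.794 (0.690 to 0.916), 0.837 (0.706 to 0.992) and 0.873 (0.731 to 1.04). With Il1b-low barcodes alone, Csf3r at day 7 was at 1.00 and at day 14 at 1.11, and Ly6g at day 14 was at 1.00. In them Retnlg was at 59.6% of its intermediate level in sham, 95.2% at day 3, 65.8% at day 7 and 66.8% at day 14. Past 1.5-fold higher were 3, 1 and 0 of the 6 genes at days 3, 7 and 14. The shares of all genes were 11.7%, 12.4% and 11.4%. Past 1.5-fold lower were 0, 0 and 1, where 22.2%, 18.8% and 17.3% of genes were. In Il1b-high barcodes at day 3, the one day with at least 15 of them, Ly6g was at 0.689 (0.321 to 1.60) and Retnlg at 0.929 (0.837 to 1.03) of sham. In all mature barcodes, Mmp8 was at 1.34, 1.35 and 1.29 of sham at days 3, 7 and 14, and Mmp9 at 0.865, 1.28 and 1.08. Over the alternatives the Mmp8 log2 ratio ran down to -0.02 at day 7 and at day 14.

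Past 1.5-fold in mature barcodes, 2 genes were higher at day 3 (Ly6g and Olfm4), where 12.7% of 3045 genes were. At day 7 the only one was Ly6g, where 9.87% of 1976 genes were. At day 14 Retnlg was higher, where 8.78% of 1810 genes were, and Olfm4 was lower, where 20.2% were. With Il1b-low barcodes alone, Retnlg was not past 1.5-fold higher at day 14. Olfm4 is not a stable value here: 5 mature barcodes held 60.1% of its UMIs, and 1 sham barcode held 27 of the 31 sham UMIs. Its log2 ratio was 0.71 at day 3 and -0.73 at day 14, but 3.25 and 1.89 without the top barcode of each pool. The day 3 ratio of Olfm4 was also reversed, at -0.33, when stages came from clusters. For Retnlg, the day 3 and day 14 log2 ratios of 0.58 and 0.65 were 0.24 and 0.30 with granule cuts of 1000 and 100.

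In immature barcodes the pools differed more, and so did what the gate held. Sham, day 3, day 7 and day 14 had 3 of 28, 17 of 116, 0 of 17 and 10 of 24 barcodes in the cycling class. The summed primary granule markers were at 328 CPM in sham, 80.4 at day 3, 15.5 at day 7 and 86.7 at day 14, with none of the 5 at 0 in sham and 3 at 0 at day 7. The cycling markers were at 257, 797, 15.5 and 1693 CPM in the same order. Their part in the ratios below was not tested.

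Retnlg had 3600 CPM in immature sham barcodes, 7051 at day 3, 11951 at day 7 and 2199 at day 14, so day 7 was highest and day 14 lay below sham. Its ratio to sham was 1.96 (1.86 to 2.06) at day 3, 3.32 at day 7 and 0.611 at day 14. Mmp8 had 1173 CPM in sham, 1551 at day 3, 2317 at day 7 and 753 at day 14, and Mmp9 had 747, 913, 1651 and 366 CPM. These metalloproteinase transcripts followed the order of Retnlg. Csf3r had 71.3 CPM in sham, 112 at day 3, 170 at day 7 and 51.2 at day 14, and Ly6g had 2118, 2691, 3458 and 1645 CPM. Olfm4 differed, with 405, 507, 1245 and 1673 CPM, highest at day 14.

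At day 3, 2 genes were past 1.5-fold higher, Retnlg and Csf3r (1.56; 1.09 to 2.30), where 16.0% of 5683 genes were. At day 7 all 6 were, where 15.6% of 2825 genes were, from 17 barcodes. At day 14 Mmp8, Mmp9 and Retnlg were lower past 1.5-fold, where 10.7% of 3697 genes were, and Olfm4 was 4.13-fold higher (3.53 to 4.84), where 20.0% were. Olfm4 is unstable in immature barcodes too: 1 of 28 sham barcodes held 50.3% of the sham UMIs, and without the top barcode of each pool the level was 1436 CPM at day 14 and 208 CPM in sham. At day 3 its log2 ratio of 0.32 ran from -3.37 to 1.13 over the alternatives. With cycling barcodes left out, day 7 kept 5 of the 6 past 1.5-fold, where 12.9% of 2500 genes were: Retnlg 2.70, Olfm4 2.50, Csf3r 2.06, Mmp9 1.81 and Mmp8 1.60, with Ly6g at 1.42. Without cycling barcodes day 14 had 1871 CPM of Mmp8 and 5342 CPM of Retnlg from 14 barcodes, above the 1444 and 4428 CPM of 25 sham barcodes. The day 3 ratio of Retnlg depended on the granule cut: with cuts of 250 and 25 its log2 ratio was -0.14, against 0.97 with 500 and 50. For Csf3r at day 3 the log2 ratio was 0.65 from sums and -0.43 as the mean of per-barcode CPM.

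In intermediate barcodes, where the granule sum is bounded on both sides, the ratios of the 5 genes other than Olfm4 lay between 0.865 and 1.22 at all 3 days. Retnlg was at 1.01, 1.07 and 1.22 of sham at days 3, 7 and 14, and Mmp8 at 0.925, 0.985 and 1.01. Olfm4 was at 1.09, at 1.59 where 12.6% of 1781 genes were past 1.5-fold higher, and at 0.567 where 17.1% of 1667 genes were past 1.5-fold lower.

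**Figure D5:**
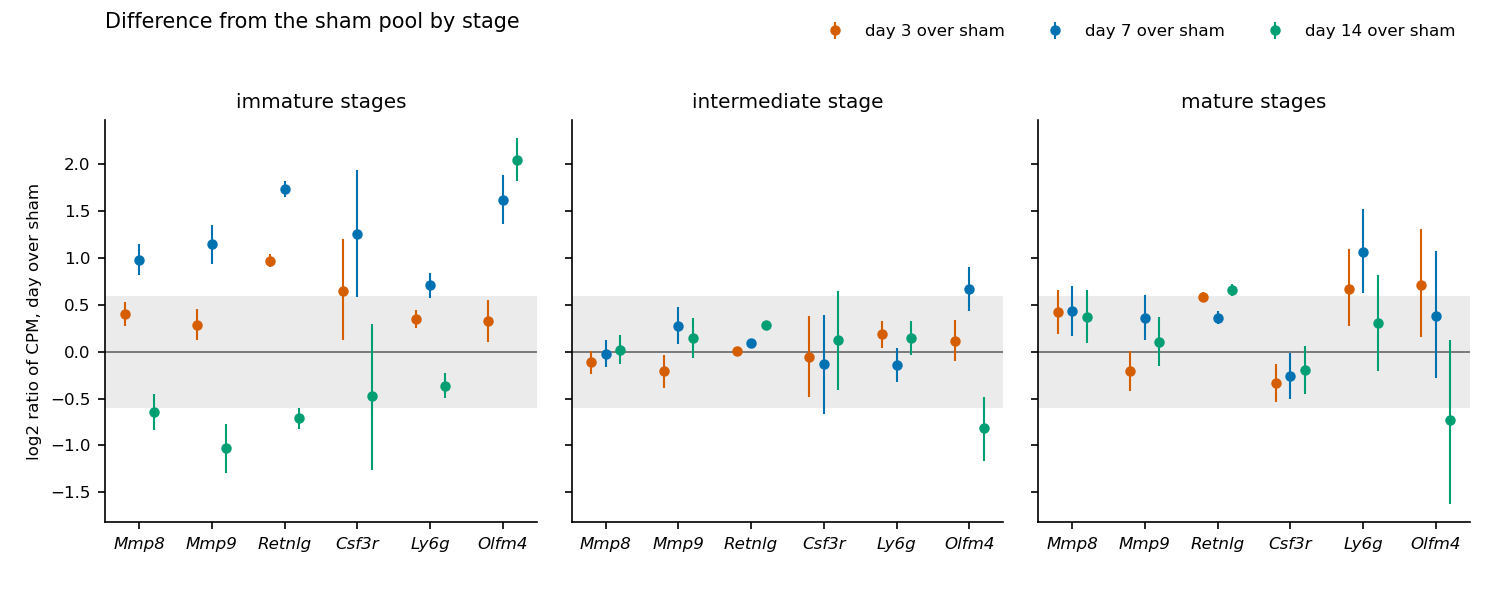
Log2 ratio of CPM, each day over sham, in immature, intermediate and mature barcodes, with exact 95% intervals; the grey band is 1.5-fold. Immature points spread from 0.490 for Mmp9 at day 14 to 4.13 for Olfm4 at day 14 as linear ratios, while intermediate points other than Olfm4 stay inside the band.

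Genes of the same pathways were read in the mature against immature comparison, from lists chosen with earlier results of these data known. Over all 6974 genes the median log2 ratio was 0.10, with 34.2% higher and 31.9% lower past 1.5-fold. The ratios in this and the next paragraph are of CPM, and mature barcodes were shallower. Median UMIs were 5371 in Il1b-low and 3572 in Il1b-high mature barcodes, against 31163.5 in cycling and 15374 in non-cycling immature ones. UMIs per barcode were not compared for these genes, so a higher CPM need not mean more UMIs per barcode. Of 10 measured G-CSF signalling genes, 8 were higher past 1.5-fold and 0 lower, with a median log2 ratio of 1.67. Socs3, the feedback inhibitor of the receptor, had 99.4 CPM in mature and 4.00 CPM in immature barcodes, and the kinase Jak1 was 3.47-fold and the transcription factor Stat3 3.61-fold higher. Of 7 granulopoiesis factors, 5 were higher and 2 lower: Cebpb had 4467 CPM in mature and 312 CPM in immature barcodes, whereas Cebpe, needed for secondary granule genes, had 28.4 CPM in mature and 461 CPM in immature barcodes.

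Of 9 measured tertiary granule and secretory vesicle genes, 4 were higher, a share near the 34.2% of all genes, and 0 were lower, where 31.9% of all genes were, with a median log2 ratio of 0.46. Among them Arg2 (arginase 2) was 16.2-fold, Slc11a1 (a phagosomal metal transporter) 7.74-fold and Fpr1 (a formyl peptide receptor) 4.02-fold higher. The 9 measured secondary granule genes included 8 that were lower, but 7 of the 9 set the gate; of the others, Cybb was at 0.230 and Hp at 1.43. Among 5 measured metalloproteinase and inhibitor genes, Adam17 was 5.96-fold, Adam8 3.98-fold and the inhibitor Timp2 3.42-fold higher, and the inhibitor Reck was at 0.312. In the Ly6 family Ly6c1 and Ly6c2 were at 0.235 and 0.272, near Ly6g, and Ly6e at 1.08. In the resistin family Retn had 46 UMIs in mature and 2 in immature barcodes, and Retnlb 21 and 1, ratios of 70.7 (18.5 to 601) and 64.6 (10.4 to 2670). All 5 measured release and homing genes were higher; Cxcr2 is a marker of the neutrophil gate and Cxcl2 of the Il1b split, and of the others Itga4 was 6.63-fold and Cxcr4 4.31-fold higher. No olfactomedin family gene other than Olfm4 reached 20 UMIs, and of 4 measured primary granule genes, all part of the gates, 3 were lower.

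For each gene, the most similar profiles were ranked by Pearson correlation of log2(CPM + 10) over 14 stages and lineages, among 6402 genes; as all 14 groups come from 1 library and most contrast neutrophils with other cells, high values are common. Mmp8 was most like Bmx (r = 0.99), Ceacam10 and Fpr2. Mmp9 and Retnlg were each other's nearest gene (r = 0.99), and both had Ovgp1 next. Csf3r was most like Tnfaip2 (r = 0.97), Rab32 and Clec4d, the last of which is among the markers of the neutrophil gate. Ly6g was most like Chil1 (r = 0.99), Ankrd22 and Mapk13, and Olfm4 most like Syne1 (r = 0.98), Wfdc21 and Itgb2l. Wfdc21 is also among the markers of the neutrophil gate.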

How the data were processed

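The authors deposited 2 matrices of UMI counts, of genes and of genes with hashtags, made with Cell Ranger 3.1.0, per the file headers, on mm10, per the submitters' processing notes; the gene rows were the same in both. The labels name kit v2 in one place and v3 in another. Counts were used as deposited: 1556 barcodes, 15753747 gene UMIs and 543123 hashtag UMIs. The hashtag rule kept 1359 barcodes, and barcodes with at least 200 genes and at most 10% mitochondrial UMIs were used. Marker sums per 10000 UMIs set the gates: neutrophil 150, primary granule 50, secondary granule 500 and 50, Il1b list 100 and cycling 5. No doublet caller was run; 12 barcodes with markers of neutrophils and another lineage were left out, and 39 had no lineage. CPM came from summed UMIs, ratios with exact conditional Poisson and shares with Clopper-Pearson 95% intervals. PCR and droplet noise are not in these intervals. A floor of 3 UMIs was used for counts of 0. Genes past 1.5-fold with at least 20 UMIs in both groups together were counted as background. Calculations were tested on simulated data and used Python 3.11.15, scipy 1.17.1 and, for hashtags, Seurat 5.3.0. Genes named beyond the 6 are the list genes with interval bounds farthest from 1 and the 3 most similar genes each. The values of 1 list gene are not reported here. Genes, lists and gates were chosen with earlier results of these data known, and the stage cuts, the Olfm4 threshold and alternatives on cuts, cycling, Il1b-low barcodes and UMIs per barcode after seeing the data.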

Additional observations from a re-analysis of the deposited data

Results flagged for a closer look

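With 1 pool per condition none of the following differences between pools was tested; each was picked because the counting intervals of 2 pools lay on opposite sides of 1. The ratio of Mmp8 in mature to immature barcodes was 0.718 at day 7 and 2.12 at day 14. The day 14 direction turned without the 10 cycling barcodes, with 1596 CPM in mature and 1871 CPM in non-cycling immature barcodes. In immature barcodes the ratio to sham of Mmp8 was 1.32 at day 3, 1.98 at day 7 and 0.642 at day 14, and that of Mmp9 was 1.22, 2.21 and 0.49. For Retnlg it was 1.96, 3.32 and 0.611, and for Ly6g 1.27, 1.63 and 0.777, over the same days. Of the immature barcodes, 10 of 24 were cycling at day 14, 0 of 17 at day 7 and 3 of 28 in sham. In intermediate barcodes the ratio of Mmp9 was 0.865 at day 3 and 1.21 at day 7, and that of Olfm4 was 1.59 at day 7 and 0.567 at day 14.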

How the results depend on the processing

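Of 30 log2 ratios, 12 were past 1.5-fold. Of the 191 values these took under the alternatives, 181 kept their direction and 162 were also past 1.5-fold. Alternatives that changed only the minimum number of UMIs leave a ratio as it is. Their values are among these counts and could not differ. Reversals, as log2 ratios, were as follows. Mmp9, mature against immature, was -1.06 by UMIs per barcode. Olfm4 in mature barcodes at day 3 was -0.33 with clusters and -0.63 with granule cuts of 1000 and 100; at day 14 it was 1.27 as the mean of per-barcode CPM, 2.10 with HTODemux, 1.89 without the top barcodes and 2.15 with granule cuts of 250 and 25. In immature barcodes at day 3, Csf3r was -0.43 as the mean of per-barcode CPM and -0.11 when thinned, and Retnlg was -0.14 with granule cuts of 250 and 25. Counts of genes past 1.5-fold moved too. By UMIs per barcode, mature against immature gave 1 higher and 4 lower. Day 3 mature gave 4 higher with median-ratio size factors, HTODemux and UMIs per barcode, 0 with clusters, and 0 higher and 1 lower with cuts of 1000 and 100. Day 7 mature gave 2 higher with median-ratio size factors, without top barcodes and by UMIs per barcode, 4 with per-barcode means, thinning and HTODemux, 3 with cuts of 250 and 25, 0 higher and 1 lower with clusters, and 1 lower with cuts of 1000 and 100. Day 14 mature gave 2 higher when thinned, with clusters and without top barcodes, 3 with HTODemux and with cuts of 250 and 25, 4 with per-barcode means, 0 with cuts of 1000 and 100 and with Il1b-low barcodes alone, and 0 lower with no filter, with the members, S100a8 and S100a9 out of the total, and with the settings just named except the last 2. Day 14 mature also gave 0 lower with median-ratio size factors. Day 3 immature gave 1 higher when thinned, with clusters, with HTODemux and without barcodes above the 95th percentile of UMIs, 0 with cuts of 250 and 25, and 1 lower with cuts of 1000 and 100. Thinned shares of neutrophils with a UMI were 69.3% for Mmp8, 83.2% for Mmp9, 82.2% for Retnlg, 53.1% for Csf3r and 70.3% for Ly6g. The causes were not tested. Olfm4 at day 14 had no thinned ratio. No paired analysis was possible because each condition is 1 pool and carries no replicate number. Depth limits Csf3r in immature barcodes, with 35 UMIs in sham and 26 at day 14, and Olfm4 in mature barcodes, with 31 in sham and 20 at day 14.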

Other observations

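After the cell filter, 92 barcodes had no assigned hashtag and entered no comparison between pools. By the same gates 1 was at the primary granule stage, 3 were cycling immature, 11 non-cycling immature, 2 intermediate, 4 Il1b-low mature and 0 Il1b-high mature, and 7 held markers of neutrophils and another lineage.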
